A study of Arabidopsis thaliana with 4 samples.

Results

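Messenger RNA is normally broken down from both ends, by the 5′ exonuclease EIN5 and by the exosome with its SKI2 helicase. When this decay fails in plants, transcripts can enter RNA silencing instead. RDR6, an RNA-dependent RNA polymerase, copies them into double-stranded RNA, and Dicer-like enzymes cut the copies into small interfering RNAs. Small RNA reads at a transcript can also come from other RNA polymerases, from transcripts that pair with each other or fold back, or from cut and partly degraded RNA. The loci described here gained small RNA reads in plants that lack EIN5 and SKI2, and still held more than 0.25 times that level when RDR6 was mutated as well.

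The plants, Arabidopsis thaliana, were 18 days old and grown at 22 °C with 16 h of light a day, and RNA below 200 nt from their aerial parts was sequenced. There was 1 library for each of 4 genotypes, and the labels do not say whether tissue from several plants was pooled. Col-0 is the wild type, ein5-1 ski2-3 the double mutant of mRNA decay, rdr6-11 the RDR6 mutant, and rdr6-11 ein5-1 ski2-3 the triple mutant. A locus was a member when the double mutant held at least 50 reads, when its reads per table total (with 1 read added) were at least 4 times those of Col-0, and when the triple mutant held more than 0.25 times the double mutant's level. Of 33602 loci, 175 met the first pair of criteria and 98 met all of them. Another 7 of those 98 were left out by name, among them EBF1 and PHO2, which leaves 91 members. The other 77 gained loci fell at or below 0.25 and are called lost here. The counts of Col-0, the double mutant and the triple mutant chose the members, so their folds are given as descriptions, and rdr6-11 is the 1 library that the rule did not use. Each genotype has 1 library, so differences are described without a replicate check or a test. Intervals in parentheses are 95% and cover counting error only.

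Table totals were 808276 reads (Col-0), 621515 (ein5-1 ski2-3), 878632 (rdr6-11) and 877589 (triple mutant), so that 1 read was worth 1.24, 1.61, 1.14 and 1.14 RPM, reads scaled to a table total of 1000000. The 8 TAS loci, precursors of trans-acting siRNAs made through RDR6, took 7.14% and 2.50% of the first pair of libraries and 0.0126% and 0.0518% of the pair with rdr6-11. The 4 leaf markers together held 230 to 731 reads, the 3 root markers 0 to 2 and the 3 flower markers 1 to 11. The share of chloroplast loci was 9.57% and 9.81% in the pair with RDR6 intact, and 21.2% and 27.1% in the pair without. Locus lengths implied by the authors' RPKM also form 2 sets along the RDR6 genotype, and differ between the sets for 2 members, SAMDC and AAC1. Any difference in handling between these sets cannot be told apart from RDR6 when the triple mutant is set against the double mutant, or rdr6-11 against Col-0. The comparisons double mutant over Col-0 and triple mutant over rdr6-11 each lie within a set.

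Of the 91 members, 86 were protein-coding genes, 2 miRNA genes, 1 a long non-coding RNA, 1 a pseudogene, and AT3G02468 had no entry in the annotation used. Together they held 970 reads in Col-0, 10838 in ein5-1 ski2-3, 1554 in rdr6-11 and 9840 with all 3 genes mutated. Read numbers below are listed in this order of the 4 libraries. As shares of all reads these were 0.12% (0.113 to 0.128), 1.74% (1.71 to 1.78), 0.177% (0.168 to 0.186) and 1.12% (1.10 to 1.14). The member set was thus low in both libraries with intact decay genes and high in both without them. In whole aerial tissue, more cells that make these small RNAs and more small RNA per cell cannot be told apart. A median member held 7, 78, 8 and 89 reads in the same order, with ranges of 0 to 67, 50 to 713, 0 to 171 and 19 to 544. In read counts the ranges overlapped between libraries, but within each member the double mutant was above Col-0, as the rule requires.

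**Figure D1:**
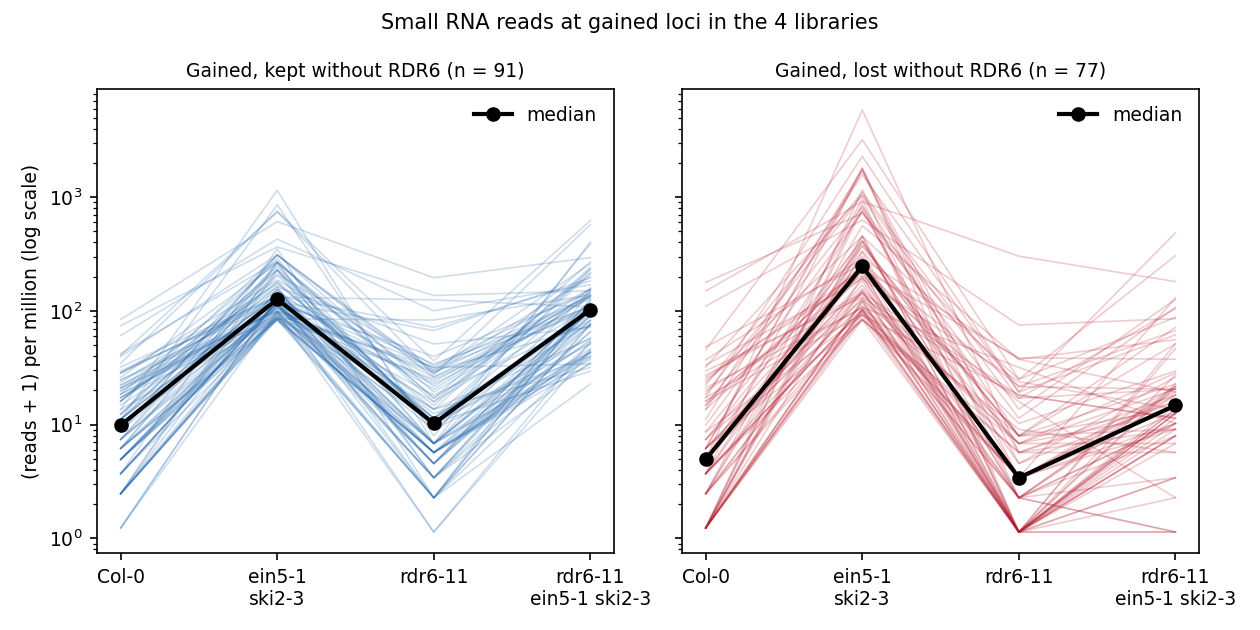
RPM with 1 read added, on a log scale, at each gained locus in the 4 libraries; each thin line is 1 locus and the black line is the median over loci. The 91 kept loci (left) are high in both libraries with the decay mutations, while the 77 lost loci (right) are high mainly in ein5-1 ski2-3.

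"Kept" means above the threshold and not equal. The ratio of triple to double mutant, with 1 read added, had a median of 0.622 over members and ran from 0.253 at CYP710A2 to 2.01 at PSAD-1. The median log2 ratio was -0.69 in members, against 0.28 over protein-coding loci with at least 10 reads in any library. The rule favours high counts in the double mutant, which can lower this ratio. It also removes ratios at or below 0.25, so the median is a description. The counting interval of the ratio, taken without the added read, lay below 1 for 56 members, included 1 for 28 and lay above 1 for 7. No share over all loci stands beside these counts. Just inside the threshold stood CYP710A2 (0.253), MIR408 (0.280), BAM1 (0.284) and GRP7 (0.291), and just outside it BRG2 (0.230), LBD39 (0.224), XYL4 (0.218) and AK3 (0.212). At the threshold on gain the nearest members were AT5G42950 (4.03-fold) and MIR408 (4.12-fold), and the nearest locus outside was PRXR1 (3.61-fold). The limit of 50 reads lies where loci are dense, since 33 loci with 40 to 49 reads met both ratios, against 18 members with 50 to 59.

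The first comparison asks what the decay mutations did where RDR6 was mutated in both libraries, by setting the triple mutant over rdr6-11. Summed over members, reads were 6.34-fold higher (6.01 to 6.69) in the triple mutant. The median log2 fold of members, with 1 read added, was 3.04, against 1.42 over the 3132 protein-coding loci with at least 10 reads in any library and 0.42 over all 5402 such loci. With a gain threshold of 2 in place of 4, 114 loci met the rule and the summed fold was 1.54 (1.53 to 1.55). With a threshold of 8, 64 loci did and it was 13.6 (12.4 to 15.0). The narrower interval at 2 means far more reads in the sum, so the loci added there decide that fold. Of the 91 members, 90 lay above rdr6-11, 84 at least 2-fold and 75 at least 4-fold, and the interval lay above 1 for 87. These counts have no read minimum and are given without a share over all loci, so they only describe the members. With the 50-read minimum, 56 of the 68 members that reached it were called higher and 0 lower. Over all loci with 50 reads in either library 16.4% were called higher and 0.418% lower. Most members passed that minimum only through the triple mutant, whose level the rule had already required, so the count describes the members and does not stand as support for them. Against Col-0, 60 of the same number of members were called higher in the triple mutant and 0 lower, beside 25% and 5.02% of all loci, and the rule fixed most of this too.

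The rule required a high fold of double mutant over Col-0 and set no such condition on triple mutant over rdr6-11, so it favours the first of these folds, and their difference is given as a description. In 71 members the fold of triple mutant over rdr6-11 was below that of double mutant over Col-0, and in 20 it was above, with a median difference of -0.79 on the log2 scale. Lost loci had larger gains with RDR6 intact (median 49.9-fold, against 17.4-fold for members) and smaller ones without it (median 3.50-fold, against 8.21-fold). Kept and lost loci were split by the ratio of triple to double mutant, which favours both differences, so they are descriptions. Of the lost loci 37 of 77 were still at least 4-fold higher in the triple mutant than in rdr6-11. Read numbers were low (median 12 reads in the triple mutant), and no share over all loci stands beside this count. The median log2 fold of lost loci was 1.81, against 1.42 over protein-coding loci with at least 10 reads. A lost locus had thus not always returned to the level of its control library, but coding loci in general were also higher in the triple mutant.

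**Figure D2:**
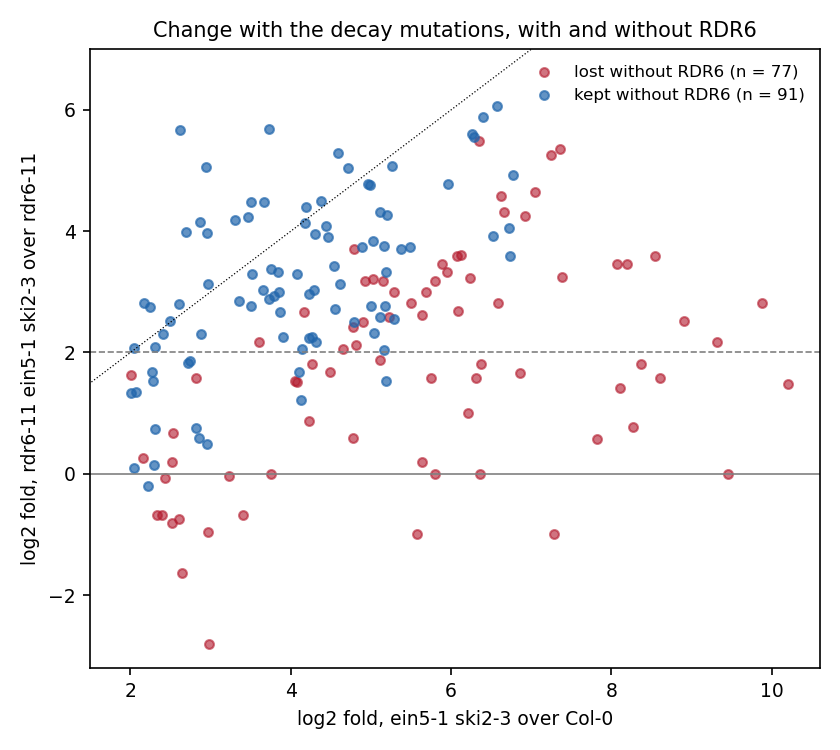
Log2 fold of ein5-1 ski2-3 over Col-0 (x axis) against log2 fold of the triple mutant over rdr6-11 (y axis), each with 1 read added; points are gained loci, blue for the 91 members and red for the 77 lost loci. The dashed line marks a 4-fold gain without RDR6, reached by 75 members and 37 lost loci, and the dotted diagonal marks equal folds. The rule ties the y axis to the x axis, so the separation of colours is in part its result.

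Setting rdr6-11 over Col-0 asks whether members differed with RDR6 mutated but decay intact. The rule used Col-0 and favours loci with low counts there, which can raise this fold. It is therefore a description too, and its interval does not cover that selection. Summed reads were 1.47-fold higher in rdr6-11 (1.36 to 1.60), against 1.01-fold (1.00 to 1.02) over protein-coding loci that were not gained and 0.829-fold (0.752 to 0.914) over the lost loci. At a gain threshold of 2 the first of these was 3.66 (3.60 to 3.71), a fold that the added loci decide. The median log2 fold of members was 0.20, beside 0.02 over all loci with at least 10 reads. The interval included 1 for 75 members, lay above 1 for 12 and below 1 for 4, given without a share over all loci. Only 7 members held 50 reads in either library, and 2 of them did so in Col-0. Among the 7, AT3G21120 and SWI1 were called higher and 0 lower. Over all loci with 50 reads in either library 1.95% were called higher and 3.90% lower. Both called members passed the minimum only through rdr6-11, so their count describes them and does not stand as support.

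Some members, chosen here after their values were seen, already held more reads in rdr6-11 than most, and had smaller folds of triple mutant over rdr6-11 than the median member. MEE38 (AT3G43160, a gene named from embryo arrest mutants) held 67, 378, 171 and 257 reads in the 4 libraries. It was 2.35-fold higher in rdr6-11 than in Col-0 (1.76 to 3.16) and only 1.5-fold higher in the triple mutant than in rdr6-11 (1.24 to 1.84). The Rossmann-fold gene AT1G05350 held 59, 226, 119 and 131 reads, with a triple over rdr6-11 fold of 1.10 (0.853 to 1.42). SWI1 (AT5G51330), needed for chromosome cohesion in meiosis, held 13, 52, 72 and 120 reads. It was 5.09-fold higher in rdr6-11 than in Col-0 and 1.67-fold higher in the triple mutant than in rdr6-11 (1.24 to 2.27). The F-box gene AT3G21120 held 22, 81, 109 and 94 reads, the highest of them in rdr6-11 by read number, and was the only member below rdr6-11 in the triple mutant (0.863-fold, 0.648 to 1.15). BIG (AT3G02260), a very large protein of auxin transport, held 19, 74, 58 and 170 reads, 2.93-fold more in the triple mutant than in rdr6-11 (2.17 to 4.03). TCTP (AT3G16640), a conserved growth regulator, held 25, 83, 62 and 160, with 2.58-fold more (1.92 to 3.52). For these loci rdr6-11 stood nearer to the decay mutants than for the typical member.

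Beyond its counts, the member set had many single-exon genes. Of 86 protein-coding members 55 (64.0%) have 1 exon in their longest annotated transcript, against 18 of 70 lost genes (25.7%). The 73 coding loci that reached 50 reads in the double mutant without a gain had 24 (32.9%), and over all 26712 protein-coding loci 5495 did (20.6%). The share was 65.5% in the 29 coding members with at least 100 reads in the double mutant and 63.2% in the 57 with fewer. Loci below the limit, with 20 to 49 reads, that met both ratios had 99 of 193 (51.3%), and those that gained and were lost had 16 of 47 (34%). With no read minimum the share in kept loci was 28.2%. The rule does not use exon number, but no test was made, because genes are not samples. Transcript length was similar between members (median 1922 bases, 774 to 15700) and lost genes (2233 bases), and median GC content was 42.5% and 42.1%.

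**Figure D3:**
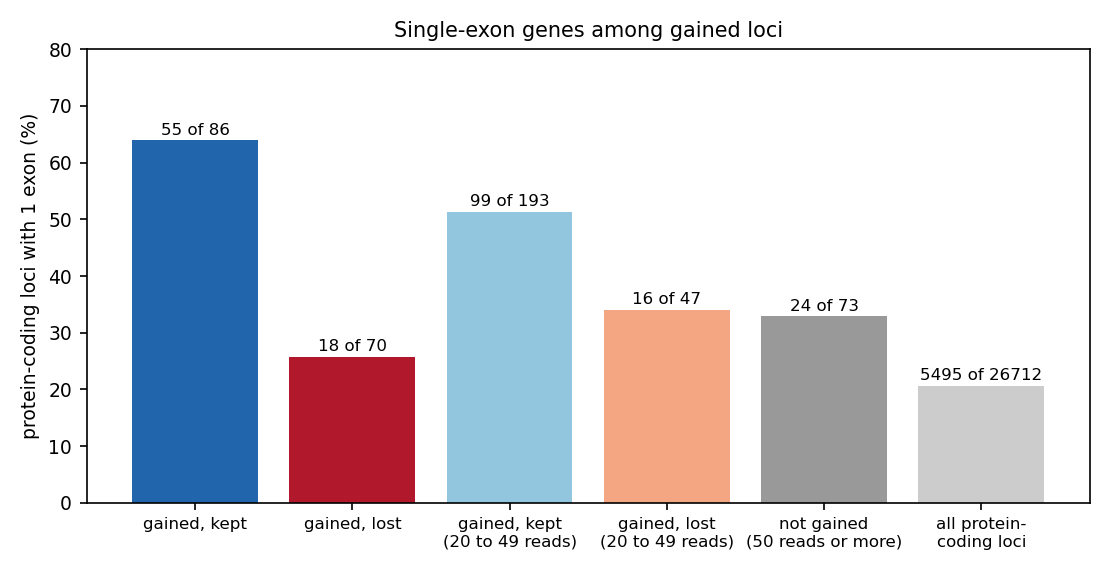
Share of protein-coding loci whose longest annotated transcript has 1 exon, in percent, with the counts above each bar. Kept loci have the tallest bars in both read classes, 64.0% at 50 reads or more and 51.3% at 20 to 49 reads, against 25.7% and 34% for lost loci and 20.6% for all protein-coding loci.

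Overlap with a gene on the opposite strand was found for 14 of 86 coding members (16.3%), between the 12.9% of lost genes and the 23.8% of all protein-coding loci. The table has no strand column, so reads of such pairs could not be told apart. Of all 21-base windows in a transcript, the median share also found in another gene's transcript was 0.784% in members and 0.550% in lost genes. Only 2 members, AT1G18000 and AT1G18010, had more than 50% of their windows elsewhere. They were also the only coding members with 100 or more windows that occur inverted within 5000 bases of the gene, a property found in 0 lost genes, in 13.7% of the coding loci with at least 50 reads that were not gained and in 0.288% of all protein-coding loci.

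AT1G18000 and AT1G18010 encode major facilitator superfamily proteins, membrane carriers of small solutes, and are an exact inverted duplication. In the TAIR10.1 genome they lie on chromosome 1 on opposite strands, facing away from each other. The identical arms are 5689 bases long, chr1:6191597-6197285 on the minus strand and chr1:6198742-6204430 on the plus strand, with 1456 bases between them. All 1380 coding bases are the same in both. The first 120 coding bases are shown because any small RNA from them fits both genes, with the start codon in capitals (chr1:6195928-6196047, minus strand, and chr1:6199980-6200099, plus strand).
AT1G18000 and AT1G18010: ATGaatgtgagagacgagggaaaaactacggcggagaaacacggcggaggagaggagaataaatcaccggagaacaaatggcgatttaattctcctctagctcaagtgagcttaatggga
AT1G18000 held 27, 465, 31 and 544 reads. AT1G18010 held 32, 461, 23 and 502, almost the same values, and which copy a read came from could not be told. Summed, the pair held 20.4-fold more in the double mutant than in the wild type (15.7 to 27.0) and 19.4-fold more in the triple mutant than in rdr6-11 (14.7 to 26.0). These folds are close to each other, and the triple mutant held 0.800 of the double mutant's level (0.732 to 0.875). Whether the same reads were counted at both genes was not tested, and if they were, the intervals of the sums are too narrow.

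The 2 members with the most reads in the double mutant have no described function in the annotation used. AT1G13360 held 10, 713, 5 and 352 reads in the 4 libraries. It was 92.7-fold higher in the double mutant than in wild type (50.1 to 194) and 70.5-fold higher in the triple mutant than in rdr6-11 (29.9 to 218). AT4G32020, annotated as a serine/arginine repetitive matrix-like protein, held 8, 531, 6 and 340 reads, with folds of 86.3 (43.5 to 201) and 56.7 (25.8 to 156). Both stood at 10 reads or fewer in the libraries with intact decay and at 340 or more in the others.

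SAMDC (AT3G02470), the S-adenosylmethionine decarboxylase of polyamine synthesis, held 6, 193, 16 and 114 reads. AT3G02468, not matched in the annotation used, held 6, 192, 22 and 93. Their counts were nearly equal in Col-0 and the double mutant and differed more in the other libraries, and whether the same reads were counted at both was not tested.

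**Figure D4:**
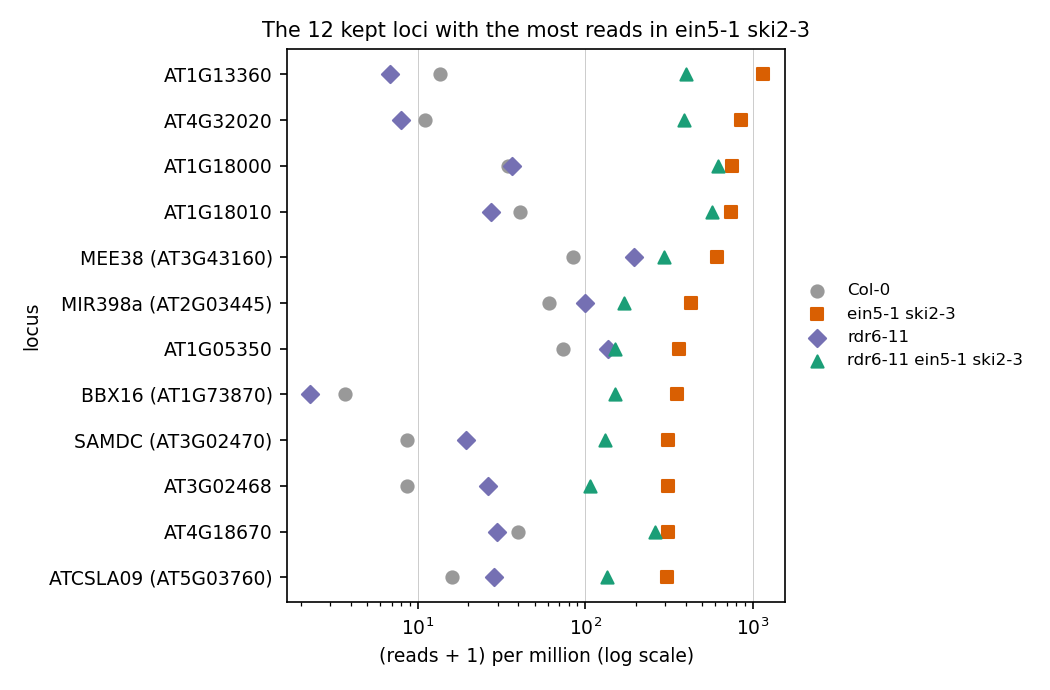
RPM with 1 read added, on a log scale, for the 12 members with the most reads in ein5-1 ski2-3; each symbol is 1 library. At AT1G13360 and AT4G32020 the decay mutants stand far right of both controls, while at MEE38, MIR398a and AT1G05350 rdr6-11 lies closer to the triple mutant.

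The members below are grouped by known role, with groups formed after the values were seen. Transcription factors and zinc-finger proteins made up 11 members, with 68, 1167, 109 and 975 reads in sum. The group was 22.3-fold higher in the double mutant than in wild type (17.5 to 28.9) and 8.96-fold higher in the triple mutant than in rdr6-11 (7.34 to 11.0). The largest folds of double mutant over Col-0 in the group were at CDF3 (AT3G47500), a DOF factor of the photoperiod pathway, with 1, 167, 2 and 90 reads, and at BBX16 (AT1G73870), a B-box protein, with 2, 218, 1 and 132 reads. BBX16 was 142-fold higher in the double mutant (38.8 to 1178) and 132-fold in the triple mutant (23.3 to 5259), wide intervals that rest on 1 or 2 control reads. TCP14 (AT3G47620), a class I TCP factor of cell division, held 4, 159, 5 and 77 reads, and TCP23 (AT1G35560) of the same family held 1, 52, 4 and 29.

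Other factors kept more of the gain. RAP2.4 (AT1G78080, WIND1), which drives dedifferentiation at wounds, held 9, 101, 1 and 102 reads, and GATA26 (AT4G17570) held 10, 51, 1 and 101. In both genes rdr6-11 held 1 read and lay below Col-0, 0.102-fold (0.00233 to 0.738) for RAP2.4 and 0.0920-fold (0.00212 to 0.647) for GATA26. RAV2 (AT1G68840, TEMPRANILLO 2), a repressor of flowering, held 8, 129, 28 and 135 reads, and was 3.22-fold higher in rdr6-11 than in Col-0 (1.43 to 8.17). LBD37 (AT5G67420), a repressor of nitrate-responsive genes, held 13, 78, 22 and 113, and the tandem zinc-finger gene ATCTH (AT2G25900) held 13, 71, 34 and 126. OXS2 (AT2G41900), another zinc-finger gene of stress responses, stood near the threshold with 2, 73, 4 and 33 reads.

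Genes of hormone and light signalling made up 9 members, with 82, 923, 163 and 835 reads in sum. D14 (AT3G03990), the strigolactone receptor, held 8, 143, 8 and 203 reads. It was 23.2-fold higher in the double mutant than in wild type (11.5 to 54.9) and 25.4-fold higher in the triple mutant than in rdr6-11 (12.7 to 59.6), so the level in the triple mutant was 1.01 times that in the double mutant (0.808 to 1.25). KMD4 (AT3G59940), a Kelch repeat F-box protein that limits cytokinin responses, held 14, 166, 14 and 118 reads. GAI (AT1G14920), a DELLA repressor of gibberellin responses, held 3, 59, 4 and 40, and PKS1 (AT2G02950), a phytochrome-binding protein of phototropism, held 12, 142, 8 and 89. BAM1 (AT5G65700), a receptor kinase of the shoot meristem, held 5, 126, 8 and 50, which puts it next to the threshold at 0.281 of the double mutant's level (0.198 to 0.393). The phosphatase gene AT5G02760 differed from this group, with 16, 100, 44 and 62 reads and only 1.41-fold more in the triple mutant than in rdr6-11 (0.943 to 2.13).

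Cell wall and cell surface genes made up 12 members, with 150, 1336, 144 and 1404 reads in sum, so that the triple mutant held 0.744 of the double mutant's level (0.690 to 0.803). LRX3 (AT4G13340), a leucine-rich repeat extensin of the wall, held 33, 168, 14 and 236 reads. It was the member of the group that was clearly lower in rdr6-11 than in Col-0, at 0.390-fold (0.193 to 0.749), and it was 16.9-fold higher in the triple mutant than in rdr6-11 (9.86 to 31.3). The leucine-rich repeat genes AT4G18670 and AT3G24480 resemble it in coding sequence, with 76.0% and 85.8% identical aligned bases. AT4G18670 held 31, 192, 25 and 227 reads and AT3G24480 held 9, 151, 8 and 139. LRX3 shares 13 of its 2236 distinct 21-base windows with AT4G18670 and 79 with AT3G24480, so most of its windows tell the genes apart. SOS5 (AT3G46550), a fasciclin-like arabinogalactan protein, held 12, 109, 9 and 186 reads, and the proline-rich protein PRP4 (AT4G38770) held 17, 83, 17 and 124. ATCSLA09 (AT5G03760), a glucomannan synthase, held 12, 191, 24 and 118 reads, and AGP15 (AT5G11740), a short arabinogalactan protein, held 1, 55, 8 and 25.

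Sulfur and glucosinolate metabolism gave 5 members, with 30, 424, 47 and 361 reads in sum. SERAT2;1 (AT1G55920), a serine acetyltransferase of cysteine synthesis, held 1, 141, 5 and 90 reads, and APR2 (AT1G62180), which reduces activated sulfate, held 8, 86, 9 and 81. The glutathione transferase GSTU20 (AT1G78370) held 3, 67, 2 and 44. SOT16 (AT1G74100), a sulfotransferase of glucosinolate synthesis, kept little of its gain, with 4, 66, 11 and 27 reads and 2.46-fold more in the triple mutant than in rdr6-11 (1.18 to 5.49). ESM1 (AT3G14210), which alters glucosinolate breakdown, held 14, 64, 20 and 119 reads, above the double mutant's count in the triple mutant.

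Glycosyltransferases of small molecules gave 4 members, and 2 of them share a stretch of chromosome 3 with the long non-coding RNA AT3G21755. UGT71B1 (AT3G21750) held 8, 78, 8 and 87 reads, HYR1 (AT3G21760) held 1, 59, 5 and 34, and AT3G21755 held 0, 59, 0 and 46. AT3G21755 lies on the opposite strand, and all windows of the HYR1 transcript are antisense to it, so their reads could not be told apart. With its counts of 0 set to 3 reads, AT3G21755 was 25.6-fold higher in the double mutant than in wild type. On the same terms it was 15.4-fold higher in the triple mutant than in rdr6-11. The lower 95% limits, which also cover counting error in the higher library, were 20.2-fold and 12.0-fold. UGT84A3 (AT4G15490), which glucosylates cinnamic acids, held 3, 73, 0 and 38 reads, and GT72B1 (AT4G01070) held 3, 53, 11 and 49.

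Ubiquitin and protease genes gave 9 members. PUB25 (AT3G19380), a U-box ubiquitin ligase, held 6, 96, 4 and 87 reads, and the RING gene AT3G60080 held 0, 81, 5 and 71. The DWNN-domain genes AT4G17410 and AT5G47430, with 81.5% identical aligned coding bases, held 7, 69, 3 and 88 reads and 4, 52, 4 and 37. AT2G26110, a DUF761 gene outside these groups, likewise stood at 0 reads in Col-0, with 80, 3 and 65 in the other libraries. The aspartyl protease genes ASPG1 (AT3G18490), AT1G01300 and AT3G52500 held 112, 74 and 70 reads in the double mutant and 67, 86 and 99 in the triple mutant. Of these, AT3G52500 was lower in rdr6-11 than in Col-0, with 2 reads against 11 (0.167-fold, 0.0180 to 0.766).

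Genes of translation, energy and photosynthesis gave 5 members, and 4 of them had a ratio of triple to double mutant above 1. Of all 91 members 19 had such a ratio. The median log2 ratio over protein-coding loci with at least 10 reads was 0.28, so a ratio above 1 is not particular to this group. PSAD-1 (AT4G02770), a subunit of photosystem I, held 17, 61, 24 and 175 reads, 2.03 times the double mutant's level in the triple mutant (1.51 to 2.77). LOS1 (AT1G56070), a translation elongation factor, held 14, 56, 27 and 118 reads, and AAC1 (AT3G08580), the mitochondrial ADP/ATP carrier, held 15, 64, 19 and 98, with a ratio of 1.08 whose interval included 1 (0.783 to 1.51). TCTP is described above. GRP7 (AT2G21660), an RNA-binding protein of the circadian clock, was the exception with 4, 140, 2 and 57 reads. Members outside the groups with a ratio above 1 included SWI1 (1.63), described above, PDX1.1 (AT2G38230), of vitamin B6 synthesis, with 15, 94, 12 and 202 reads, and CP5 (AT1G64720) with 18, 106, 11 and 212. Chloroplast reads and nuclear rRNA reads were also higher in the triple mutant, 2.76-fold and 1.94-fold over the double mutant, and their part in these ratios was not tested. The smallest ratio was that of CYP710A2 (AT2G34490), a sterol desaturase, with 1, 55, 1 and 19 reads, and the dehydrin ERD14 (AT1G76180) held 5, 78, 10 and 34.

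MIR398a and MIR408, miRNA genes that are induced at low copper and target copper proteins, were members with small folds of triple mutant over rdr6-11. Their mature sequences are shown because these loci make small RNAs through hairpin precursors, a route that does not need RDR6. They were read from the TAIR10.1 annotation of RefSeq as DNA letters, with the seed (bases 2 to 8) in capitals. miR398a-3p lies at chr2:1041012-1041032, miR398b-3p at chr5:4691107-4691127 and miR408-3p at chr2:19319933-19319953, all on the plus strand.
miR398a-3p: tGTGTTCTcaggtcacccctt
miR398b-3p: tGTGTTCTcaggtcacccctg
miR408-3p: aTGCACTGcctcttccctggc
miR398a-3p and miR398b-3p share their seed. MIR398a (AT2G03445) held 48, 265, 87 and 148 reads, 7.18-fold higher in the double mutant than in wild type (5.26 to 9.98) and 1.70-fold higher in the triple mutant than in rdr6-11 (1.30 to 2.25). MIR408 (AT2G47015) held 23, 75, 27 and 29, with folds of 4.24 (2.63 to 7.09) and 1.08 (0.614 to 1.89). MIR398b (AT5G14545) held 473, 838, 400 and 434 reads and MIR398c (AT5G14565) held 494, 864, 366 and 489. Their gains of 2.30-fold (2.06 to 2.58) and 2.27-fold (2.03 to 2.55) over Col-0 fell short of the rule. In all 4 genes the triple mutant held at most 0.401 of the double mutant's level, beside 0.581 for all 178 miRNA genes summed. COPT6 (AT2G26975), a copper transporter, behaved otherwise, with 8, 87, 5 and 133 reads.

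No locus of the 9 gene lists was a member. The lists were TAS loci, RNA silencing, miRNA targets, circadian clock, phenylpropanoid and flavonoid synthesis, phosphate homeostasis, rapid stress response, housekeeping and mRNA decay. They hold 8 to 53 loci each, so a pathway without a listed member is not shown to be absent. The members UGT84A3 and GRP7, for example, have roles near 2 of these lists but stand in none. Gained loci were present in 4 lists, with 8 among 30 miRNA targets that held at least 10 reads. TAS loci, silencing genes and phenylpropanoid genes gave 1 each. The silencing gene, AGO1, is also 1 of the 8 miRNA targets. Of these gained loci 0 were kept. Among the 3132 protein-coding loci with at least 10 reads 163 were gained, and 93 of those met the whole rule before any was left out by name. The lists do not hold the loci left out by name, of which PHO2 and REV are miRNA targets that met the whole rule, with ratios of triple to double mutant of 0.997 and 0.261. For miRNA targets the median log2 fold was 2.91 for the gain in the double mutant and -2.79 for its change on adding rdr6-11. All loci with at least 10 reads stood at 0.25 and 0.22. Protein-coding loci with at least 10 reads, the closer comparison, stood at 1.27 and 0.28. As background, 26.8% of all loci with 50 reads in either library were called higher in ein5-1 ski2-3 than in Col-0 and 9.04% lower, a contrast that the rule itself used. Besides the unmatched AT3G02468, the pseudogene AT1G33855 (22, 115, 26 and 95 reads) was the only member of no coding or known RNA class.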

How the data were processed

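The deposited table gives for each locus the authors' count of reads in each of 4 libraries and the authors' RPKM, per the file headers. The submitters' processing notes list CASAVA 1.8.2, BWA and the TAIR9 build with no role for any of them. Strand, size selection of reads and handling of multiple matches were not given in the sources used here, so siRNAs and fragments of longer RNA were counted together. Counts were scaled to table totals. RPKM served only to derive locus lengths.

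Folds of single loci and sums carry no added read and have exact conditional binomial (Clopper-Pearson) 95% intervals, as do shares of reads. They cover counting error only, and a count of 0 is set to 3 reads for a bound. Ratios in the rule, medians and calls carry 1 read. A call needs 4-fold and 50 reads in the higher library. No test was made.

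Names, exons and sequences come from TAIR10.1 (RefSeq), and 32835 of 33602 loci matched. Scripts used Python 3.11.15, SciPy 1.17.1, Biopython 1.88 and, for TMM scaling only, edgeR 4.0.16, and were tested on simulated data. The members, gene lists and rule for named genes were chosen with earlier results of these data known. That rule takes 12 members by reads and 12 by fold in the double mutant, 10 and 8 by largest and smallest triple over double ratio, 6 by reads in rdr6-11, all non-coding members and all list members. Members outside it, the role groups and the exon comparison were chosen after values were seen. Alternatives changed the scaling, pseudocount, minimum and thresholds.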

Additional observations from a re-analysis of the deposited data

Results flagged for a closer look

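The F-box gene AT3G21120 had values on opposite sides of 1 for the decay mutations. With RDR6 intact the double mutant held 4.79 times the Col-0 level (2.96 to 8.06), but AT3G21120 stood at 0.863 times the rdr6-11 level in the triple mutant (0.648 to 1.15), an interval that includes 1. The difference between these effects was not tested, since each genotype has 1 library.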

How the results depend on the processing

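The 91 members became 85, 80, 111 and 77 with median-of-ratios, TMM, miRNA-read scaling and totals without small RNA and organelle classes, and 76 members met the rule under all of these. Against table totals these scalings shift every log2 fold by -0.19, -0.30, -0.04 and -0.54 (double over Col-0), by -0.05, 0.00, 0.78 and 0.12 (triple over double) and by -0.19, -0.26, 0.55 and -0.40 (triple over rdr6-11). The read minimum decided the number most, with 292 loci at 20 reads, 32 at 100 and 2222 with none, and a kept ratio above 0.5 left 56.

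With members chosen anew, the summed fold of rdr6-11 over Col-0 was 1.24 with TMM, 1.70 with miRNA scaling, 1.24 with reduced totals, 1.34 at 100 reads, 2.14 with no minimum, 3.66 and 1.18 at gains of 2 and 8, and 1.35 at a kept ratio of 0.5. That of the triple mutant over rdr6-11 was 5.84, 7.23, 8.35 and 6.78 under the 4 scalings, 6.75, 6.99 and 4.99 at 20, 100 and no reads, 1.54 and 13.6 at gains of 2 and 8, 7.64 at a kept ratio of 0.5, 5.56 at a lower one, and 5.87 without the inverted pair. At a gain of 2 the added loci hold most of the reads summed, and the cause of the other shifts was not tested. The members called higher in the triple mutant than in rdr6-11 numbered 48 to 60 across scalings. The single-exon share, with alternatives added once values had been seen, was 28.2% with no read minimum and 77.4% at a gain of 8, and 55.2% to 71.2% otherwise. No paired analysis was possible because each genotype has 1 library. At a median of 7 to 8 reads in the control libraries, folds of most members are imprecise.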
